A study of Drosophila melanogaster with 2 samples.

Results

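The gap and terminal segmentation genes are 8 listed genes of Drosophila melanogaster, hb, Kr, gt, kni, knrl, tll, hkb and cad, taken by name from 13945 protein-coding genes in the annotation. For each gene, the sites at which GFP-tagged Six4 was recovered were collected in a window that adds 2 kb to either end of the gene body, called the gene window here, and within 20 kb of the body. Six4 is a DNA-binding homeodomain protein related to sine oculis. The data came from chromatin immunoprecipitation and sequencing (ChIP-seq) with an antibody against GFP. Both samples were biological replicates, numbered 1 and 3, of a single group. Each was made from whole embryos aged 0 to 16 hours, males and females pooled, of a transgenic strain named Six4-GFP that stably expresses Six4 with GFP at its C terminus. The labels do not state which promoter drives the fusion. No second genotype, treatment or stage was present, so the comparisons are among genes and between replicates. Chromatin of the whole animal was pooled over all these hours. Recovery in few cells, or for a short time, and weak recovery in many cells therefore cannot be told apart. Peak lists hold no expression values, and the labelled stage was not checked against markers.

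Gap and terminal genes turn maternal gradients in the early fly embryo into broad domains along the head-to-tail axis. The gap proteins are transcription factors that largely repress one another and position the stripes of the pair-rule genes. At both ends of the embryo the receptor Torso acts through the Ras and MAP kinase cascade to switch on tll and hkb. Later in development most of these genes are used again, for example in neuroblasts, trachea and gut.

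The deposited peaks fall into 4 lists on build dm6. The lists of replicates 1 and 3 held 30000 and 28237 entries, and the list from both replicates pooled held 30000. These 3 lists include background entries by design. The fourth list, the set that passed the irreproducible discovery rate (IDR) procedure, which compares peak ranks between replicates, held 3974 peaks. All 3974 were the strongest entries of the pooled list, so membership of a peak went with its pooled rank. Peaks ranked unlike in the replicates could therefore be in the set. Signal values are the authors' own, one for each peak, and ranks count from 1 for the strongest signal within a list. The lowest signal in the IDR set was 81.1 and its median 128. Signals of different lists are on different scales. The depth of the libraries is unknown.

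Gap and terminal genes had few Six4-GFP summits at the gene itself. A single member of 8, cad, had an IDR summit in its window, while hb, Kr, gt, kni, knrl, tll and hkb had none. The same rule was met by 31.2% of all protein-coding genes. Within 20 kb of the body, 4 of 8 members had a summit, hb, kni, knrl and cad, against 73.4% of all protein-coding genes. These 4 genes had 11 summits in all, namely 6 at cad, 2 at hb, 2 at kni and 1 at knrl. The mean number within 20 kb was 1.38 for the members and 1.98 over all genes. None of the 11 summits had a member's transcription start site (TSS) as its nearest protein-coding TSS. With the strongest entries of replicate 3 alone, 1 summit did, in the intron of knrl. No matching share over all genes is given here, so this count cannot be called low. With 8 genes chosen with earlier results known, these counts were not tested.

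Gene length sets part of such a count, because a longer window holds more sites. Among genes within 20% of the member's length, an IDR summit in the window was present in 26.0% of those like hkb, 27.7% of those like gt and 28.5% of those like tll. The share was 32.4% for kni, 38.2% for Kr, 40.4% for hb, 46.7% for cad and 54.6% for knrl, which at 23519 bp has the longest body of the 8. The members without a summit therefore included both short genes and, with knrl, a length at which more genes had a summit than lacked one.

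The distance to the nearest IDR summit put the members into 3 steps. That of cad lay inside the gene. Those of knrl, hb and kni lay 14000, 14170 and 15298 bp from the body. Those of tll, gt, hkb and Kr lay at 34838, 39789, 40992 and 59265 bp. The median of the members was 25068 bp, against 6947 bp for all protein-coding genes, and cad alone lay nearer than that median. Without replicate 3, with the 3974 strongest entries of replicate 1 alone, the median of the members was 14732.5 bp. A nearer summit was found for 65.7% of all genes than for knrl, for 84.2% than for tll and for 92.1% than for Kr. The body of Kr ends 55542 bp from the end of its chromosome arm, and no IDR summit lay in that interval, so its nearest summit could lie on the upstream side only.

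The nearest summits of the 4 members without one within 20 kb were all upstream, 3 of them in the promoter of another gene. That of tll was the strongest, with a signal of 222 and rank 716, 137 bp upstream of the TSS of cindr, which encodes an adaptor protein. That of gt, with a signal of 182, lay in an intron 1287 bp downstream of a TSS of boi, a Hedgehog co-receptor gene. That of Kr, with 116, lay 313 bp upstream of the CG34038 TSS, and that of hkb, with 100 and rank 2906, 104 bp upstream of the TSS of tub, which encodes the Toll pathway adaptor Tube.

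**Figure D1:**
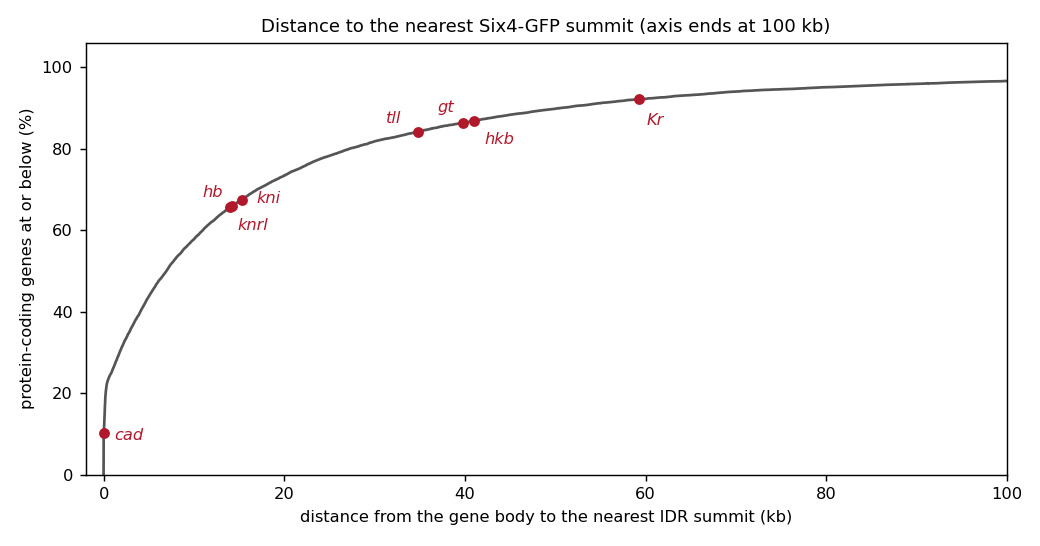
Distance from the gene body to the nearest IDR summit in kilobases (horizontal axis) against the percentage of 13945 protein-coding genes at or below that distance (grey line); red points are the 8 members. The point of cad lies at 0, those of knrl, hb and kni between 14000 and 15298 bp, and those of tll, gt, hkb and Kr between 34838 and 59265 bp.

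Caudal, the product of cad (FBgn0000251), is a homeodomain activator that forms a gradient highest at the posterior, because Bicoid represses translation of the maternal mRNA at the anterior, and it is later needed in the hindgut. The gene lies on the plus strand of 2L (20770731 to 20783135). The summit inside it was intronic, 10067 bp downstream of the nearest cad TSS, in a peak at 20780749 to 20781172. Its pooled signal was 103, rank 2823 of the IDR set. The replicates gave signals of 60.6 and 44.5, rank 1844 in replicate 1 and 4081 in replicate 3. The peak was therefore among the 3974 strongest of replicate 1 and just outside that number in replicate 3. Its nearest protein-coding TSS was that of Pomp, which encodes a proteasome maturation factor, 6695 bp away.

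The neighbourhood of cad held the other 5 summits found within 20 kb of this gene. The strongest of all 11 summits lay 4308 bp downstream of cad, 213 bp upstream of the Pomp TSS, with a pooled signal of 212 and rank 783. It ranked 1327 in replicate 1 and 638 in replicate 3. Upstream of cad, 2 summits lay in introns of dia, which encodes a formin, with signals of 122 and 98.3 at 11419 and 8541 bp from the cad body. Farther downstream of cad, 1 summit lay 53 bp upstream of the TSS of CG9328 with a signal of 120, and 1 in an intron of that gene with a signal of 122. The share of all protein-coding genes with 6 or more summits within 20 kb was 5.47%. The cut of 6 is the count of cad itself, and this share is not matched for gene length. Of the 6 summits around cad, 5 lay at or in dia, Pomp or CG9328. Both cad promoters are within 163 bp of each other, and the pooled entry there, with a summit 163 bp upstream of the nearer one, had a signal of 62.5 and rank 5738, below the IDR set. It was found in both replicates, at rank 6366 in replicate 1 and 6713 in replicate 3. Entries outside the IDR set also lay in the first part of the gene, with signals of 40.5 and 40.7, and 199 bp past its end, with 55.2.

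The 101 bases centred on 2 of these summits are shown because one is the single IDR site inside a member and the other the strongest site near any member. Neither held any of the 6 motifs searched, so both are in lower case. The sequences are from the RefSeq Release 6 genome, plus strand, chr2L:20780911-20781011 for the intron of cad and chr2L:20787393-20787493 for the promoter of Pomp.
cad intron: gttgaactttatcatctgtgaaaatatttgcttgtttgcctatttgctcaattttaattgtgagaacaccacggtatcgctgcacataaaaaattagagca
Pomp promoter: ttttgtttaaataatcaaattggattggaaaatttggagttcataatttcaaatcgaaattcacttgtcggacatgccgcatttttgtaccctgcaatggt

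The knirps paralogues kni and knrl encode zinc finger repressors of the nuclear receptor superfamily without a known ligand. They lie on the minus strand of 3L, kni (FBgn0001320) at 20692330 to 20695378 and knrl (FBgn0001323) at 20597141 to 20620659, 71671 bp apart with 1 other protein-coding gene, CG13251, between them. No IDR summit lay in either window, and 3 lay upstream. The interval between the paralogues held 1 of these, 14000 bp upstream of knrl (peak 20634447 to 20634870, signal 101, rank 2864), with ranks of 3039 in replicate 1 and 2982 in replicate 3. The other 2 were upstream of kni, at 16251 bp (20711417 to 20711840, signal 127, rank 2022) and 15298 bp (20710464 to 20710887, signal 83.2, rank 3827). The weaker of these ranked 3065 in replicate 1 and 5371 in replicate 3. All 3 were intergenic, and their nearest protein-coding TSS was that of CG13251 (2540 bp away) or CG34260 (2471 and 3424 bp away). Nearer to kni, an entry outside the IDR set lay 5395 bp upstream with a signal of 58.4, rank 8628 in replicate 1 and 5035 in replicate 3. Nearer to knrl, such an entry lay 10150 bp upstream with a signal of 76.4 and rank 4324, and it ranked 6602 in replicate 1 and 3324 in replicate 3.

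The body of knrl held a site that ranked very differently in the replicates. The intronic entry at 20600573 to 20600996, 19874 bp downstream of the TSS, had a pooled signal of 73.0 and rank 4626, outside the IDR set. In replicate 3 its signal was 55.7 and its rank 2978, but in replicate 1 its signal was 18.9 and its rank 11985. Had replicate 3 alone defined the 3974 strongest sites, knrl would have been the single member with a summit in its window, and cad would not. With replicate 1 alone it was cad, as in the IDR set. Of the 6 pooled entries in the knrl window, the next strongest, 1476 bp downstream of the TSS, had a signal of 56.2 with rank 6549 in replicate 1 and 11741 in replicate 3. It was followed by 50.7 at 7596 bp, with ranks 12049 and 6512. In kni no pooled entry lay in the window at all.

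These sequences show the IDR summits around the paralogues that held a motif within the printed bases, and the intron entry of knrl. Each has the motif in capitals. Other entries outside the IDR set are not shown, and no motif share over such entries is given. TAATTA is a core site of many homeodomain proteins, and GGATTA is the reverse complement of TAATCC, the core bound by the maternal homeodomain protein Bicoid. The positions are chr3L:20710626-20710726 upstream of kni, chr3L:20634609-20634709 upstream of knrl and chr3L:20600735-20600835 for the intron entry of knrl outside the IDR set.
kni upstream: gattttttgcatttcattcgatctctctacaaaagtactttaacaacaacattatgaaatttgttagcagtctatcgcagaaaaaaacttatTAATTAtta
knrl upstream: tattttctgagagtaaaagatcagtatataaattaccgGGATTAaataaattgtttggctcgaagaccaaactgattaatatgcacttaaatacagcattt
knrl intron: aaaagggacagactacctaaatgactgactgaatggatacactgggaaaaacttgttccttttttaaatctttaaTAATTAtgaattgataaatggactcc

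Hunchback, the product of hb (FBgn0001180), is a zinc finger protein supplied maternally and transcribed in the anterior of the embryo, and it sets the position of several other gap domains. The gene lies on the minus strand of 3R (8690980 to 8697822). Its 2 IDR summits lay beyond its 3′ end at promoters of other genes. The stronger was 14170 bp from the body, 105 bp upstream of the CG8043 TSS (peak 8676598 to 8677021, signal 141, rank 1702), and ranked 1569 in replicate 1 and 1878 in replicate 3. The weaker was 16936 bp from the body, 65 bp upstream of the TSS of mRpL19, which encodes a mitochondrial ribosomal protein (8673832 to 8674255, signal 84.1, rank 3770). It ranked 2727 in replicate 1 and 5264 in replicate 3, so it lay within the strongest 3974 of 1 replicate only. In the hb window the strongest pooled entry had a signal of 26.9, rank 20439, 156 bp downstream of the inner of the 2 annotated hb TSSs. It had a partner in replicate 1, at rank 24589, and none in replicate 3. The other pooled entry of the hb window, 1968 bp past the 3′ end, had a partner in replicate 3 only, at rank 9165. On the 5′ side of hb the strongest entry, 14343 bp upstream, had a signal of 71.6 and rank 4748, below the IDR set.

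The site at the mRpL19 promoter is shown because, of the 11 IDR summits within 20 kb of a member, it alone held TATCGATA, the DNA replication-related element of many housekeeping promoters. The motif, in capitals, reads the same on both strands. The printed bases are chr3R:8673994-8674094, plus strand.
mRpL19 promoter: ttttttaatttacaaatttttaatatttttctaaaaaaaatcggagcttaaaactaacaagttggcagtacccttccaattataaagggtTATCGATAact

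**Figure D2:**
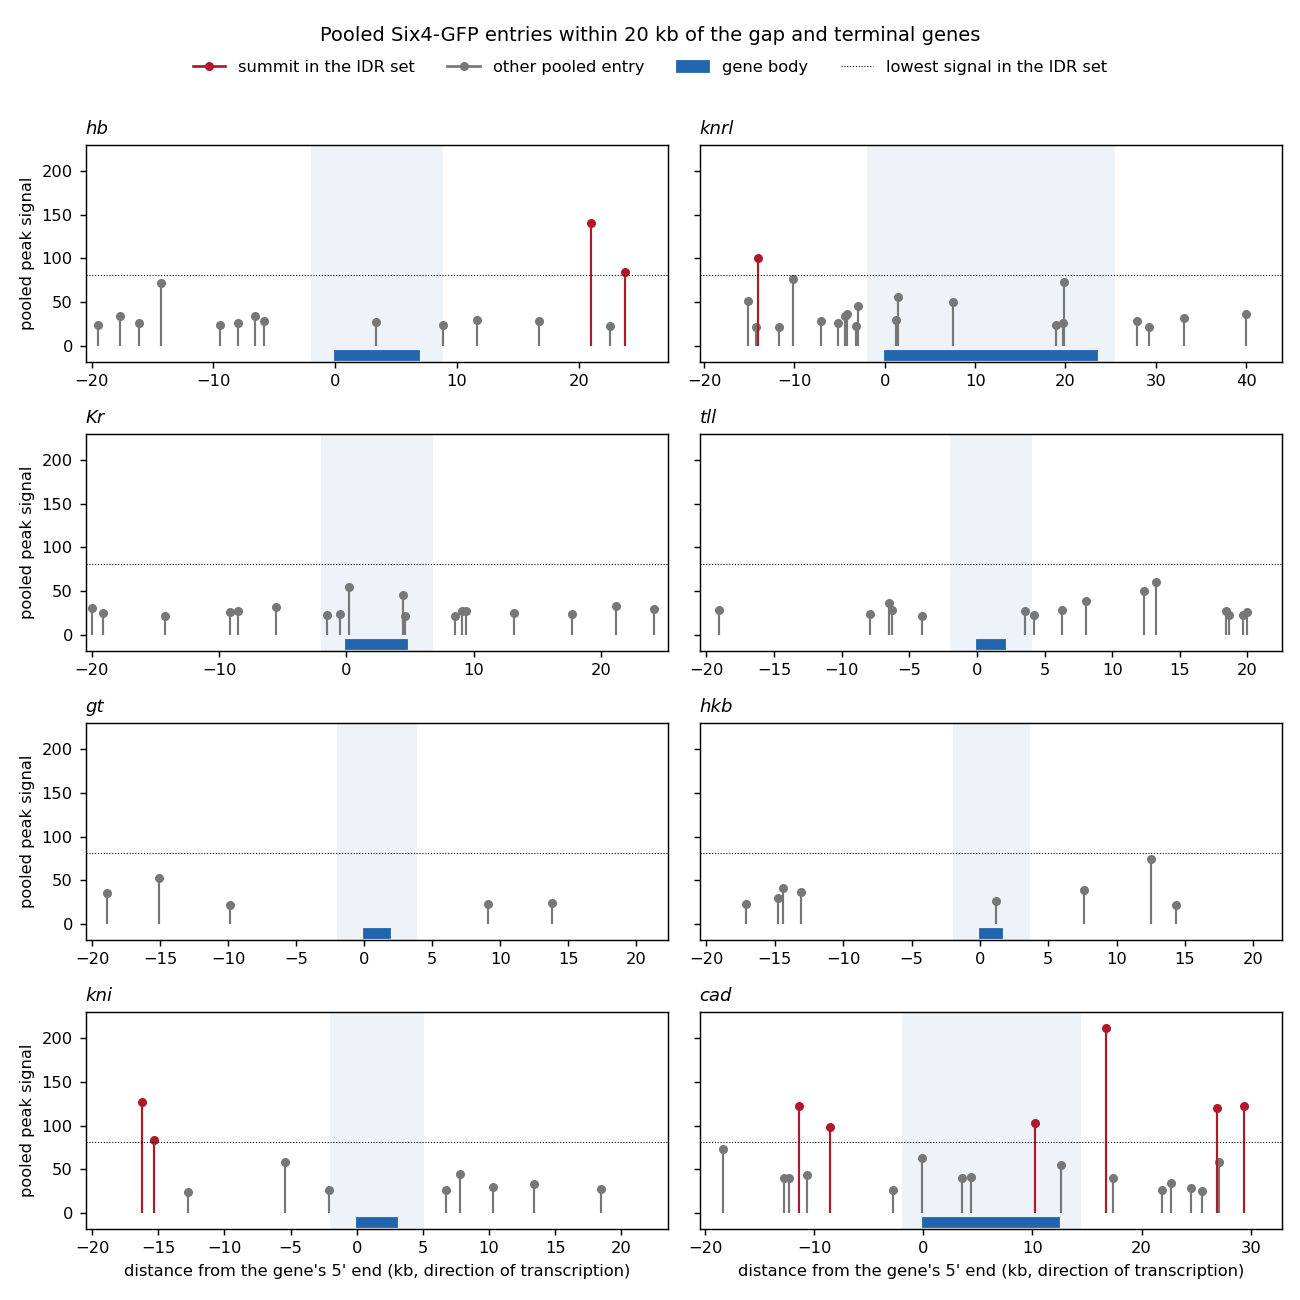
Pooled signal of each entry (vertical axis) against its distance in kilobases from the 5′ end of each member, in the direction of transcription (horizontal axis, to 20 kb beyond the body), 1 panel per gene. Red marks the summits of the IDR set, grey the other pooled entries, the blue bar the gene body and the shading the window extended by 2 kb. Red marks appear at hb, kni, knrl and cad and within the shading at cad only.

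Krüppel, the product of Kr (FBgn0001325), is a zinc finger repressor of the central domain. The gene lies on the plus strand of 2R (25226611 to 25231394), where another annotated gene, CG9380, overlaps it. No IDR summit lay within 20 kb, but the window held 5 pooled entries, more than the median of 2 over all genes. The strongest lay 184 bp downstream of the TSS with a pooled signal of 54.5 and rank 6967. Its replicate signals were 36.0 and 24.1, rank 4298 in replicate 1 and 10049 in replicate 3. The second lay 4428 bp downstream of the TSS, in a non-coding part of an exon near the 3′ end, with a signal of 46.0. It was listed in replicate 3, at rank 5994, and had no partner in replicate 1.

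Giant, the product of gt (FBgn0001150), is a basic leucine zipper repressor with an anterior and a posterior domain. The gene lies on the minus strand of X (2427113 to 2428967) and had the emptiest surroundings of the 8. No entry of the pooled list, of replicate 1 or of replicate 3 had its summit in the window. Within 20 kb there were 5 pooled entries, or 1.19 per 10 kb, against a median of 2.79 over all protein-coding genes and 4.02 around Kr. The strongest of the 5 had a signal of 52.4 and rank 7347. It lay 53 bp upstream of the TSS of tko, which encodes a mitochondrial ribosomal protein, 15062 bp from gt.

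The terminal genes tll (FBgn0003720) and hkb (FBgn0261434), both on 3R, were also without an IDR summit within 20 kb. The product of tll is an orphan nuclear receptor, and hkb encodes a zinc finger protein of the termini. In the tll window (gene at 30852315 to 30854400, plus strand) a single pooled entry lay 1453 bp past the 3′ end, with a signal of 27.5 and rank 19727. It had a partner in replicate 3 at rank 18352 and none in replicate 1. The strongest entry within 20 kb of tll, 11184 bp downstream, had a signal of 60.6 and ranked 7371 in replicate 1 and 6412 in replicate 3. In the hkb window (gene at 4345015 to 4346646, minus strand) a single pooled entry lay in the gene, with a signal of 25.9 and rank 21777. It had partners at rank 22046 in replicate 1 and 17837 in replicate 3. A stronger entry 10864 bp downstream of hkb, 80 bp upstream of the CG9776 TSS, had a signal of 74.3 and rank 4513. It ranked 2186 in replicate 1 and 6864 in replicate 3, so that hkb had a summit within 20 kb among the strongest 3974 of replicate 1 but not in the IDR set.

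The pooled list, which includes entries too weak for the IDR set, had an entry in the window of 6 of 8 members, a share near the 77.4% of all protein-coding genes. The windows of gt and kni had none. The strongest entry belonged to the strongest 15000 of the pooled list in 3 of 8 members, cad, knrl and Kr, against 61.7% of all genes. A stronger entry than that of cad was found in 24.9% of all genes, than that of knrl in 34.7% and than that of Kr in 43.4%. The corresponding shares were 68.1% for tll, 68.9% for hb and 70.3% for hkb. For genes with any pooled entry in the window, the median of the strongest signal was 63.6. Entries of both replicates that overlapped each other by 1 bp or more lay in the windows of Kr, knrl, hkb and cad, 4 of 8 members, against 64.5% of all genes. The windows of hb, gt, kni and tll held no such pair.

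**Figure D3:**
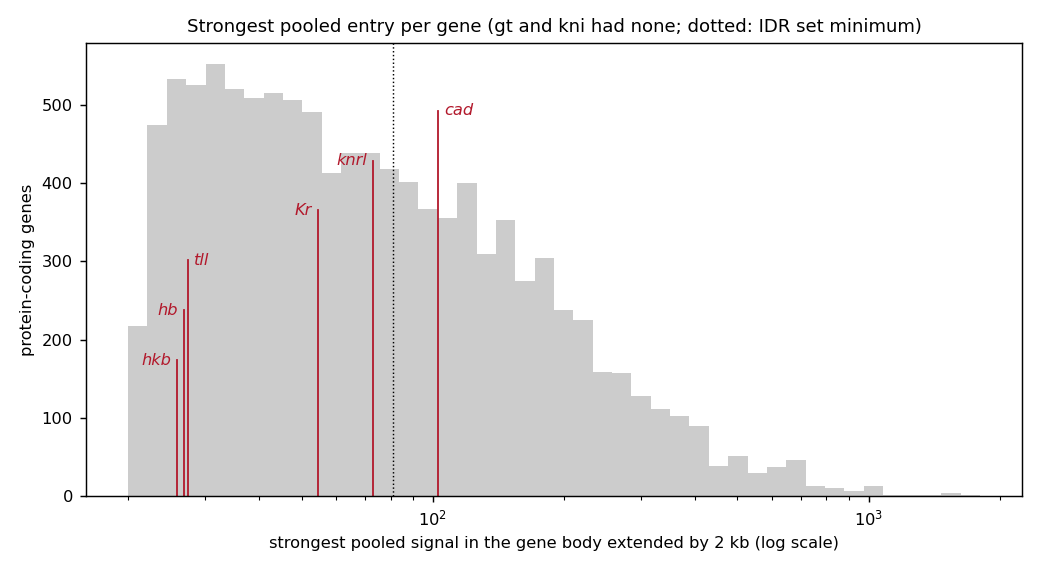
Strongest pooled signal in the gene body extended by 2 kb (horizontal log axis) for the protein-coding genes with an entry there (grey bars, number of genes); red lines mark 6 members, at heights chosen for legibility. Values of hkb, hb and tll lie between 25.9 and 27.5, those of Kr, knrl and cad at 54.5, 73.0 and 103, and cad alone lies past the dotted line at 81.1, the lowest signal of the IDR set.

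All 11 IDR peaks had an overlapping entry in both replicates, as had 99.9% of the IDR set, which holds the strongest pooled entries. Of the other 102 pooled entries within 20 kb, 49 had a partner in both replicates (48.0%), 48 in 1 replicate and 5 in neither. Among all 26026 pooled entries outside the IDR set, 55.3% had a partner in both and 4.99% in neither. The IDR summits near the members ranked from 783 to 3827 of 3974, and 2 of 11 belonged to the 1987 strongest of the set. Promoters, taken as 500 bp to each side of a protein-coding TSS, held 4 of the 11 (36.4%, against 46.8% of the IDR set), introns 4 and intergenic sequence 3. For introns and intergenic sequence no share over the IDR set is given.

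**Figure D4:**
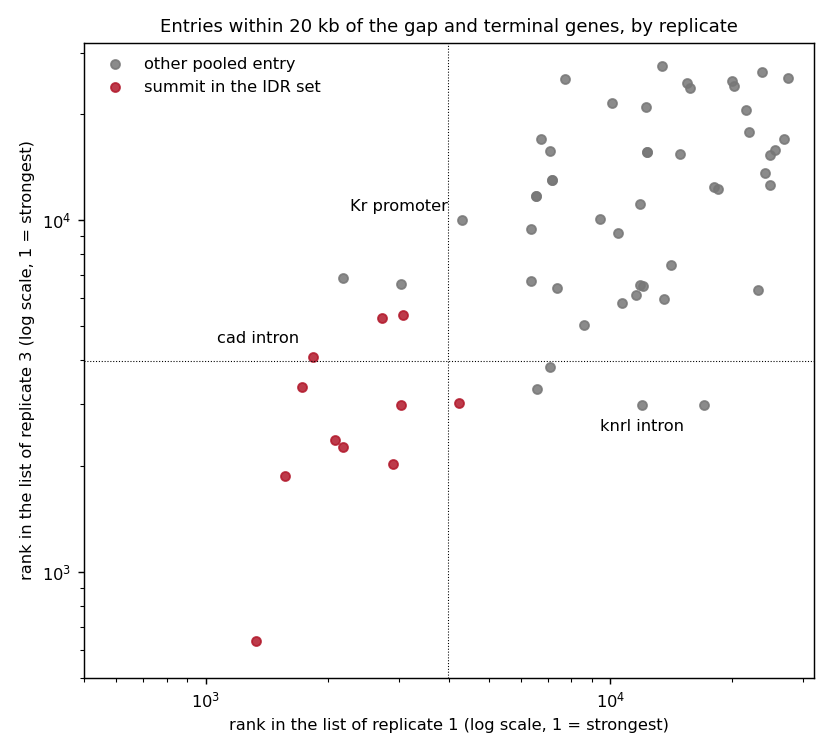
Rank in the list of replicate 1 (horizontal) against rank in the list of replicate 3 (vertical), both log axes with 1 as the strongest, for pooled entries within 20 kb of the members that had a partner in both lists; neighbouring pooled entries can share a partner. Red points are the 11 IDR summits, grey points the others, and dotted lines mark rank 3974. The intron entry of knrl ranks 2978 in replicate 3 and 11985 in replicate 1, and the intron site of cad 4081 and 1844.

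The core of the site known for Six4-type proteins, TGATAC, was in none of the 11 sequences reaching 100 bp to the left and right of a summit. Over all 3974 IDR summits 6.49% held it, on either strand, a share too low for 11 sequences to show a difference. TAATTA was in 3 of 11 windows (27.3%, against 18.4% of all summits), upstream of kni, upstream of knrl and in the intron of CG9328. At knrl it lay outside the printed bases. TAATCC was in 1, upstream of knrl (9.09%, against 6.37%), and TATCGATA in 1, at mRpL19 (9.09%, against 3.40%). CAGGTAG, a site of the pioneer factor Zelda, and GGTCACACT, a site of M1BP, were in none (0.956% and 1.33% of all summits). These 6 motifs share no complete word with one another. The 11 windows had a median of 30.3% G and C, against 34.3% over the IDR set. Counts of 1 or 3 in 11 sequences are likewise too small to show a difference from the shares over all summits. No motif difference was tested, and the shares were not matched for G and C. A match describes letters in the window and not a bound site.

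Among 40 related genes of the same patterning network, 18 had an IDR summit in the window, from 9 of 10 maternal patterning genes to 0 of 7 listed pair-rule genes. Of the 10 maternal patterning genes, the 9 are read against the 31.2% of all protein-coding genes given above. The strongest was in an intron of brat (signal 457), an NHL-domain translational repressor, followed by one at the promoter of gro (418), a corepressor used by several segmentation factors. Next came one in an intron of pum (285), which encodes an RNA-binding repressor of hb mRNA, and one in an exon of cic (226), the repressor relieved by Torso signalling. osk, which organises the germ plasm, had none. Bodies of pum, cic and brat are long, at 171340, 51173 and 45943 bp, and those of zld and Stat92E measure 17084 and 16989 bp. The 31.2% is not matched for gene length. In the nos window the 1 summit lay 75 bp downstream of the CG11779 TSS, and the strongest zld summit was nearest to the CG12702 TSS.

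Of 10 genes of the Torso pathway 4 had a summit in the window, a share near the 31.2% of all protein-coding genes. The strongest was in an intron of Raf (626, rank 56), the kinase of the cascade, whose window held 11 summits and whose body measures 48405 bp. Others were in an intron of drk (242), an adaptor, at a site nearest to the mars TSS, at the promoter of Ras85D (126) and in an intron of tsl (122), which is needed at the embryo's ends to activate the receptor. The receptor gene tor and trk, which encodes its ligand, had none. Of 10 head gap and gap-like genes 3 had a summit, again near the 31.2% of all genes. They were the forkhead gene slp1 (162), the leucine zipper gene cnc at its promoter (111) and the Sox gene D (81.5). The D summit, at rank 3946, was near the bottom of the IDR set and ranked 2251 in replicate 1 and 6324 in replicate 3. The homeobox genes oc and ems had none. The third knirps family gene, eg, had a promoter summit (161, rank 1347), which ranked 929 in replicate 1 and 2160 in replicate 3. The terminal target fkh had one as well (189), and byn, a T-box gene of the hindgut, had none. None of the 7 genes on the pair-rule list had a summit in the window, eve and h (hry in the annotation) among them. Within 20 kb 6 of the 7 had one, near the 73.4% of all genes. The genes slp1 and slp2 were counted on the head gap list and not on the pair-rule list. These lists differ in gene length and were not compared by a test.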

How the data were processed

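ChIP-seq peak lists of 2 biological replicates were analysed. The listing that accompanies the samples describes the replicate and pooled lists as peaks with background, made as input for the IDR procedure, and the IDR set as derived from these 3. No source used here names the aligner, the peak caller or the IDR threshold. No control library was analysed here. The signal of each peak is the authors' value. The −log10 q value, also deposited by the authors, was not used for ranking. Lists on dm3 were not used.

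Summits were the start plus the offset in the authors' files, with coordinates counted from 1. Genes were from Ensembl release 115, sequences from RefSeq Release 6, and peak ends lay within all 6 arms of that genome. Partners overlapped by 1 bp or more, and the one with the nearest summit was taken. The symbols of 2 listed genes were matched by hand to the annotation (nanos for nos and hry for h). Python 3.11.15, numpy 2.4.6 and pandas 2.3.3 were used, and the window counts were tested on simulated data. No test was made: a single group gives none, and the members and lists were chosen with earlier results of these data known. Counts of members are read against shares over all protein-coding genes.

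Named were the members, genes whose TSS was nearest to a summit within 20 kb or whose body held one, and in each related list up to 4 genes with the strongest peak and up to 2 without, in list order. Genes next to entries outside the IDR set, or to nearest summits beyond 20 kb, were named after their values had been seen. So were nos, zld, Stat92E, slp2 and the genes nearest to the nos and zld summits. The alternatives were other windows, assignment rules, list lengths, overlap rules and each replicate alone.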

Additional observations from a re-analysis of the deposited data

How the results depend on the processing

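Counts of 8 members depend on where the lines are drawn. The count with a summit in the window stayed at 1 without either replicate, but named cad without replicate 3 and knrl without replicate 1. It was 0 among the 1987 strongest IDR peaks and 0 when peaks went to the nearest protein-coding TSS. The count of members within 20 kb was 1 at 10 kb, 7 at 50 kb and 2 among the 1987 strongest, with 3, 26 and 2 summits. The count with a pooled entry in the window was 3 among the 15000 strongest entries. The median distance to the nearest summit was 44218.5 bp among the 1987 strongest and 14732.5 (without replicate 3) to 24867.5 bp (without replicate 1). The number of members nearer than the median gene was 0 from the TSS, 2 among the 1987 strongest, and 1 to 2 without a replicate. Summits nearest to a member's TSS numbered 0 to 1 without a replicate, the 1 being in the intron of knrl. Related genes with a summit numbered 10 with no extension of the body and 11 among the 1987 strongest. For these settings no share or median over all protein-coding genes is given. Whether the members alone moved, or all genes alike, is therefore not shown by these values. The causes were not tested. Depth is unknown, so an absent entry does not show absence of recovery. No paired analysis was possible because there was 1 group.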

Other observations

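Some entries of single replicates lay in member windows without any counterpart in the pooled list. Replicate 1 listed an entry in a non-coding part of an exon of kni (signal 16.9, rank 14365) with no partner in replicate 3. In hb, replicate 1 listed an entry 170 bp from the outer TSS (signal 12.9, rank 22017), also without a partner. In hkb, replicate 1 listed one at the TSS (signal 10.8, rank 28760), near the end of its list. The 2 entries of replicate 3 just past the 3′ end of knrl (signals 17.9 and 15.0) were likewise missing from replicate 1.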
